A study of Rattus norvegicus with 7 samples.

Results

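*Dgat1* (ENSRNOG00000028711) and *Ldah* (ENSRNOG00000021475) are 2 of the 32754 genes counted in the rat adrenal gland, and both belong to the machinery of lipid droplets. They were picked by name because their levels differed between stress protocols in these same libraries, so that their levels and fold changes are given as a description without a test. The libraries were made from adrenal glands of adolescent male Sprague-Dawley rats, which entered the protocols soon after weaning. Control rats lived in groups in standard cages with routine husbandry. Rats of the chronic variable stress (CVS) group had cage mates that were changed often, and met a changing series of physical, psychological and social stressors that also held sessions of shock and isolation. Rats of the chronic shock (CS) group were kept alone in shuttle boxes with a floor of metal bars, where foot shocks came unpredictably. Single housing, the metal floor and the frequent shocks therefore cannot be told apart in the CS group. Both protocols lasted 3 weeks. RNA of several animals was pooled for each library, with 3 libraries for control and 2 for either stress protocol, so that the spread between libraries is a spread between pools.

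Adrenal cortical cells keep a large store of lipid droplets, in which cholesteryl esters are held as a source for steroid synthesis beside triglycerides. Diacylglycerol O-acyltransferase 1, encoded by *Dgat1*, sits in the endoplasmic reticulum and joins a fatty acid to diacylglycerol, the last step of triglyceride synthesis. It can also esterify retinol. *Ldah* encodes the lipid droplet associated hydrolase, a serine hydrolase on the droplet surface whose substrate is debated and for which cholesteryl esters have been proposed.

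Total counts ranged from 20095746 to 32242123 per library. A minimum of 10 counts in every library left 13892 genes for the comparisons. TMM scaling factors ranged from 0.956 to 1.05. The labels give each library a code that begins with DM6 (control 1, CVS 1 and CS 1), DM8 (control 2 and CVS 2) or DM10 (control 3 and CS 2), and do not say what the prefix marks. Adjusted p-values below come from edgeR (quasi-likelihood F-test, Benjamini-Hochberg correction over all 13892 genes). They set a difference against the spread between pools, which the study's figure legends describe as independent replicates. Only a few of the genes had a symbol, because names came from the study's own tables of changed genes. Chromaffin and zona glomerulosa cells of the gland were each represented by 1 marker with an ID, *Chgb* at 1048 to 1564 CPM and *Cyp11b2* at 1677 to 2591 CPM, and zona fasciculata by none.

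*Ldah* lies on chromosome 6 and *Dgat1* on chromosome 7. The 250 bases before the start of *Ldah* are shown because that stretch is where transcription factors that act at the gene's start would bind (RefSeq, GRCr8, chr6:36801109-36801358, plus strand). Capitals mark the matches to CCGGAAGT (the motif bound by ETS factors, 36 bases before the start) and to TGACG (the half-site of the cyclic AMP response element, 7 bases before the start), on either strand. CCGGAAGT was added to the search after the sequence was seen.
Ldah: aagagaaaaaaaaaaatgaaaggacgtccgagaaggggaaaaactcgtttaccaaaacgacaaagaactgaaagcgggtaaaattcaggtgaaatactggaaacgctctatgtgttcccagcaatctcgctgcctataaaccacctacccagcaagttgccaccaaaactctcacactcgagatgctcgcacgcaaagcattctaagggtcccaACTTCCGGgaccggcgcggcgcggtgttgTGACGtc
CCGGAAGT was found in 3.10% of all 33469 stretches of the same length before a gene start, and TGACG in 18.2%. The full element TGACGTCA was found in 1.59% of stretches. At the TGACG shown it would need 1 base beyond the end of the stretch, so that its absence here says nothing of that site. No match was found to the E-box CACGTG (5.59%), the sterol regulatory element TCACNCCAC (0.974%), the PPAR direct repeat (0.0508%) or the palindromic glucocorticoid response element (0.0120%). TGACG is contained in TGACGTCA, and the 2 matches shown do not overlap. These are matches of letters only, and binding was not measured.

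*Dgat1* was higher in both CS libraries than in all other libraries, and CVS libraries lay among the controls. In control libraries 1 to 3 it had 1289, 1339 and 1200 counts, or 38.2, 54.9 and 51.3 normalized CPM. In CVS libraries 1 and 2 it had 1435 and 1050 counts, or 45.1 and 52.9 CPM. In CS libraries 1 and 2 it had 4079 and 6648 counts, or 130 and 261 CPM. The lower CS library was thus 2.37-fold above the highest of the other 5 libraries, and the CVS values fell within the control range. The mean ± SD was 48.1 ± 8.82 CPM over the 3 controls, 49.0 ± 5.52 CPM over 2 CVS libraries and 195 ± 92.0 CPM over 2 CS libraries. The spread in CS was far larger than the counting error, which was 1.23% to 1.57% of a value there, and CS library 2 was 2.00-fold above CS library 1.

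*Ldah* had the same order of groups with a smaller step. It had 1571, 1509 and 1485 counts in control libraries 1 to 3, or 46.5, 61.9 and 63.5 CPM. The CVS libraries had 1852 and 1193 counts, or 58.2 and 60.1 CPM. The CS libraries had 3866 and 4405 counts, or 124 and 173 CPM. Again both CS libraries stood apart, with the lower 1.95-fold above the highest of the other 5, and both CVS values lay between the lowest and the highest control. Here the mean ± SD was 57.3 ± 9.37 CPM (control, n = 3), 59.1 ± 1.35 CPM (CVS, n = 2) and 148 ± 34.7 CPM (CS, n = 2).

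**Figure D1:**
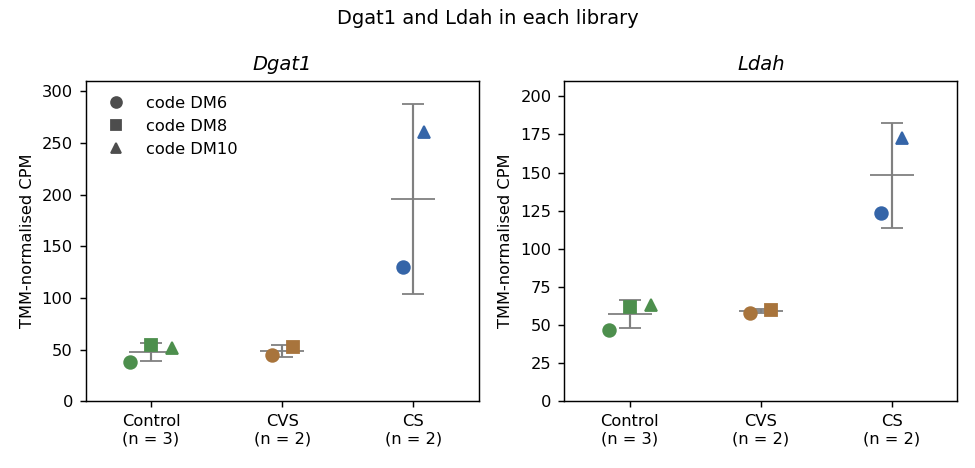
TMM-normalised CPM of *Dgat1* (left) and *Ldah* (right) in each library, by group; symbols give the code prefix, and the bar and whiskers the mean ± SD. Both CS libraries lie above all 5 others for both genes, and control library 1 is the lowest for both.

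When all libraries were put in order of level, the 5 control and CVS libraries followed each other in steps of 1.03 to 1.18-fold for *Dgat1* and 1.03 to 1.25-fold for *Ldah*, in which the 2 groups were mixed. In both genes control library 1 was the lowest and CVS library 1 the next, and both carry the DM6 prefix. The step from the highest of these 5 up to CS library 1 was 2.37-fold for *Dgat1* and 1.95-fold for *Ldah*. Both CS libraries were above the other 5 in 1077 of the 13892 genes (7.75%). Of all genes tested, 0 had a wider gap than *Dgat1* between the lowest CS and the highest other library, and 3 had a wider gap than *Ldah*. These places describe the pattern for which both genes were chosen.

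As a log2 fold change, *Dgat1* in CS over control was 2.02 (standard error, SE, 0.27), or 4.07-fold, and *Ldah* was 1.37 (SE 0.17), or 2.59-fold. In rank from the highest log2 fold change, these were places 7 and 27 of 13892. Both CS libraries were above all controls in 12.9% of the genes tested. In CVS over control, *Dgat1* had a log2 fold change of 0.03 (SE 0.16) and *Ldah* 0.05 (SE 0.13), less than the standard error in both. The CS and CVS values share the same 3 control libraries. In CS over CVS, where no control library enters, *Dgat1* had 2.00 (SE 0.31) and *Ldah* 1.32 (SE 0.16), places 3 and 21 from the highest. Both CS libraries were above both CVS libraries in 20.5% of the genes tested. Which CS library was used decided much of the size. Without CS library 2 the log2 fold change of *Dgat1* over control was 1.44 and without CS library 1 it was 2.44, against 1.11 and 1.59 for *Ldah*.

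Libraries that carry the same code prefix were then set side by side. Within DM6, CS library 1 was 3.42-fold above control library 1 for *Dgat1* and 2.66-fold for *Ldah*. Within DM10, CS library 2 was 5.08-fold above control library 3 for *Dgat1* and 2.72-fold for *Ldah*. The CS ratio of *Ldah* was thus nearly the same within both prefixes, whereas that of *Dgat1* was not. CVS library 1 over control library 1 (DM6) was 1.18-fold for *Dgat1* and 1.25-fold for *Ldah*. CVS library 2 over control library 2 (DM8) was 0.963-fold and 0.971-fold. The DM6 prefix also holds 1 library of each stress protocol, and there CS was 2.89-fold above CVS for *Dgat1* and 2.13-fold for *Ldah*. Each of these ratios compares 1 library with 1 library, without a replicate.

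**Figure D2:**
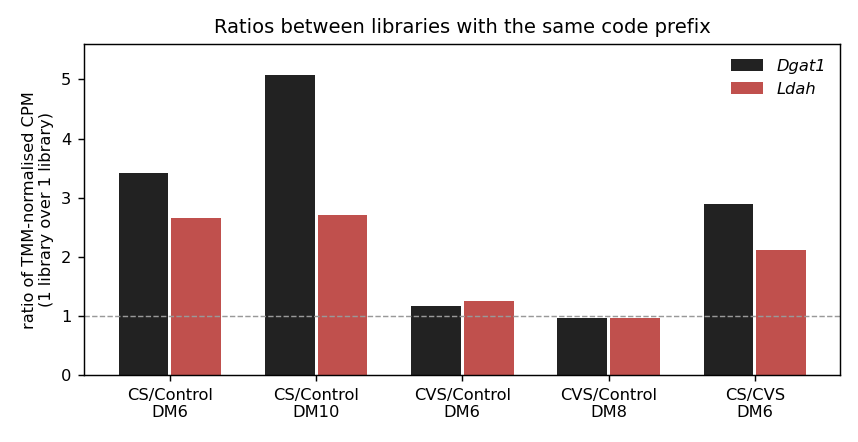
Ratio of TMM-normalised CPM between 2 libraries of the same code prefix for *Dgat1* (black) and *Ldah* (red); each bar is 1 library over 1 library, and the dashed line marks a ratio of 1. The CS to control bars of *Ldah* are 2.66 and 2.72, those of *Dgat1* 3.42 and 5.08, and the CVS to control bars lie between 0.963 and 1.25.

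The 2 CS libraries differed more in *Dgat1* than in *Ldah*. CS library 2 was above CS library 1 by 1.00 on the log2 scale for *Dgat1* and by 0.48 for *Ldah*, where the median size of this difference over all genes was 0.17. A larger difference was found in 2.22% of all genes for *Dgat1* and in 12.4% for *Ldah*. Control library 3 was above control library 1, with the same pair of prefixes, by 0.43 for *Dgat1* and 0.45 for *Ldah*. For *Ldah* the difference between the CS libraries was therefore within 0.03 of that between the controls, and for *Dgat1* it was larger by 0.57. The pair of DM6 and DM8 showed no such closeness for *Ldah*. There CVS library 2 was above CVS library 1 by 0.23 for *Dgat1* and 0.05 for *Ldah*. Control library 2 was above control library 1 by 0.52 and 0.41. Each difference rests on 1 library against 1, and a part of the code prefix in it was not tested.

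Both genes were then set against each other by the ratio of *Dgat1* to *Ldah* counts in the same library, which does not depend on the scaling of libraries. Transcript lengths were not used, so that the ratio is compared between libraries only. It was 0.820, 0.887 and 0.808 in control libraries 1 to 3, and 0.775 and 0.880 in CVS libraries 1 and 2. In these 5 libraries the ratio thus lay between 0.775 and 0.887, and the range for other pairs of genes was not computed. It was 1.06 in CS library 1 (95% Wilson interval of 1.01 to 1.10) and 1.51 in CS library 2 (1.45 to 1.57). Both CS ratios were above the other 5, whose highest interval bound was 0.956, and the intervals of the 2 CS libraries did not overlap. These intervals cover counting error only and not the spread between pools, so that they are no test of a difference between groups. On the log2 scale its mean ± SD was -0.26 ± 0.07 (control, n = 3), -0.28 ± 0.13 (CVS, n = 2) and 0.34 ± 0.37 (CS, n = 2). The difference of CS from control was 0.59, and 0.33 or 0.85 with CS library 1 or 2 alone.

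**Figure D3:**
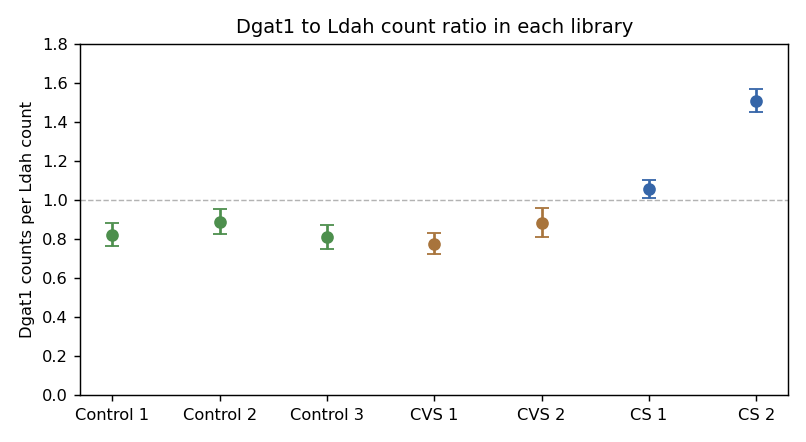
Counts of *Dgat1* per count of *Ldah* in each library, with 95% Wilson intervals that cover counting error only; the dashed line marks equal counts. The 5 control and CVS libraries lie between 0.775 and 0.887, and the CS libraries at 1.06 and 1.51.

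Over the 7 libraries the log2 CPM of both genes had a Pearson's r of 0.993 and a Spearman's rho of 0.893. The libraries fall into a CS cluster and the rest, so that r is set by the step between them and is given as a measure of likeness only. By this measure, *Dgat1* was the gene most like *Ldah* among 13891 others, and *Ldah* was the second most like *Dgat1*, after ENSRNOG00000002662 (r = 0.994), for which no symbol was at hand. The same r after subtraction of the mean of each code prefix was 0.992. Next to *Dgat1* among the genes with a symbol were *Plat* (tissue plasminogen activator, r = 0.992), ENSRNOG00000007393 (r = 0.988, listed as Ndrp1, a spelling that RefSeq does not hold), *RGD1562747* (r = 0.986) and *Cbarp* (a regulator of voltage-gated calcium channels, r = 0.984). Next to *Ldah* were ENSRNOG00000007393 (r = 0.989), *Plat* (r = 0.983), *Lmbr1* (r = 0.982) and *Cbarp* (r = 0.980). The log2 fold changes of these genes in CS over control were 0.87 for *Plat*, 0.42 for ENSRNOG00000007393, 1.58 for *RGD1562747*, 1.19 for *Cbarp* and 1.06 for *Lmbr1*. In each of them both CS libraries were above the other 5. In *RGD1562747* the order of all 7 libraries was that of *Dgat1* (Spearman's rho of 1). The order among the control and CVS libraries of the other genes differed from that of both members. The most opposite genes with a symbol were, for both members, *Prex2* (r = -0.981 to *Dgat1* and -0.992 to *Ldah*), *Cdk19* (-0.976 and -0.980) and *Sned1* (-0.966 and -0.957). *RGD1562747* shared the large difference between CS libraries with *Dgat1*, at 54.5 CPM in CS library 1 and 124 in CS library 2, against 22.9 to 35.4 in control and 27.7 to 32.8 in CVS libraries.

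The pathway around both genes could be followed only in part. Of 165 genes in 8 lists of lipid, retinoid and steroid genes, 29 (17.6%) had an ID, *Dgat1* and *Ldah* included. All 29 have a name because the study listed them as changed in CS or CVS, so that their counts are not independent evidence of a change and the lists can be read only gene by gene. Among them were 4 of 22 genes of triglyceride synthesis, 1 of 15 of droplet hydrolysis, 3 of 31 of the droplet coat, 2 of 24 of the cholesteryl ester store, 6 of 22 retinoid genes, 3 of 16 of fatty acid synthesis, 10 of 27 of fatty acid uptake and oxidation and 2 of 17 of steroid synthesis. The other lipases and coat proteins, such as *Pnpla2*, *Lipe* and *Plin2*, were not analysed here. Of the 27 genes other than *Dgat1* and *Ldah*, 2 rose in CS over control (*Scd* and *Thrsp*) and 2 fell (*Aldh1a3* and *Cd36*) at the edgeR threshold of 0.05, where 0.151% of all genes were called higher and 0.0576% lower (0.209% together). In CVS over control 1 fell (*Cd36*), where 0.0864% of all genes were called lower and 0.0936% in all. At an unadjusted p under 0.05 there were 25 in CS and 22 in CVS, against 8.44% and 6.45% of all genes. The median log2 fold change of the 27 was 0.37 in CS and -0.15 in CVS, against 0.01 and 0.00 over all genes. Blocking on the replicate number raised the calls to 21 and 23, and those over all genes to 3.01% in CS and 5.88% in CVS. Leaving out control library 1, 2 or 3 gave 1, 1 and 0 calls in CS, where 0.0072%, 0.0288% and 0.0072% of all genes were called. In CVS it gave 1, 1 and 0 calls, beside 0.0504%, 0.0432% and 0% of all genes. In CS over CVS edgeR called 0 of the 27, and 0% of all genes, while 13 of the 27 and 7.34% of all genes had an unadjusted p under 0.05. DESeq2's Wald test called 2 of the 27 there and 0.266% of all genes, and the fit with the replicate block 9 and 2.86%.

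*Dgat2*, the other enzyme of the last step of triglyceride synthesis, unrelated to *Dgat1* in sequence, did not share its pattern. It had 73.1, 70.4 and 50.6 CPM in control, 33.9 and 41.4 in CVS and 36.5 and 31.2 in CS libraries. All 4 stressed libraries were below all controls. Taken by protocol, both CS libraries were below all controls in 11.9% of all genes, and both CVS libraries in 10.9%. The share for all 4 together was not computed. The log2 fold change of *Dgat2* was -0.93 in CS (SE 0.17, edgeR adjusted p = 0.116), and -0.79 in CVS (SE 0.17, edgeR adjusted p = 0.239). Both passed the threshold under the replicate block and under DESeq2's Wald test. The latter is no separate evidence, because the study had listed *Dgat2* for both protocols with that test on these libraries. The counts of *Dgat1* per count of *Dgat2* were 0.522, 0.780 and 1.01 in control, 1.33 and 1.28 in CVS, and 3.57 and 8.34 in CS libraries. The ratio was thus above all controls in both protocols, while the level of *Dgat1* itself lay within the control range in CVS.

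*Acsl1*, which activates fatty acids with coenzyme A for triglyceride synthesis, stood at a log2 fold change of 0.39 in CS (SE 0.10) and 0.10 in CVS (SE 0.10). *Gpd1*, which makes glycerol 3-phosphate, stood at -0.37 (SE 0.08) and -0.24 (SE 0.08). Neither was called by edgeR in either comparison. *Scd*, the stearoyl-CoA desaturase, rose in CS over control by 1.55 (SE 0.11, edgeR adjusted p = 0.0110). *Thrsp*, which promotes fatty acid synthesis, rose by 2.57 (SE 0.28, edgeR adjusted p = 0.0311). Unlike *Dgat1* and *Ldah*, both genes were above all controls in both CVS libraries, which held for 11.3% of all genes. Their CVS values were 1.31 and 1.84, with edgeR adjusted p of 0.0736 and 0.0652. *Fasn*, the fatty acid synthase, stood at 0.43 in CS and 0.33 in CVS and was not called by edgeR.

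On the droplet surface, *Plin1*, the perilipin of adipocyte droplets, stood at a log2 fold change of 0.92 in CS (SE 0.23) and 0.65 in CVS (SE 0.23). *Cidec*, which enlarges droplets in adipocytes, stood at 1.37 (SE 0.23) and 0.62 (SE 0.22). *Plin5*, the perilipin of oxidative tissues, stood at -0.88 (SE 0.15) and -0.58 (SE 0.20). Their edgeR adjusted p in CS were 0.256, 0.0902 and 0.0985, so that none was called. *Plin1* and *Cidec* were low, at 3.32 to 12.7 CPM over all libraries. *Scarb1*, the receptor through which adrenal cells take cholesteryl esters from high-density lipoprotein, had 2388 to 2875 CPM in control, 3714 and 2737 in CVS, and 3871 and 3977 in CS libraries. Its log2 fold change in CS was 0.58 (SE 0.10, edgeR adjusted p = 0.116). *Cd36*, a fatty acid receptor, fell by 1.04 in CS (SE 0.13, edgeR adjusted p = 0.0319), and in CVS it fell by 1.44 (SE 0.13, edgeR adjusted p = 0.0176). Of the genes in these paragraphs, *Gpd1*, *Fasn*, *Plin1*, *Cidec*, *Plin5* and *Scarb1* were called in both protocols, *Acsl1* in CS, and *Scd* and *Thrsp* also in CVS, when the replicate number was a block.

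**Figure D4:**
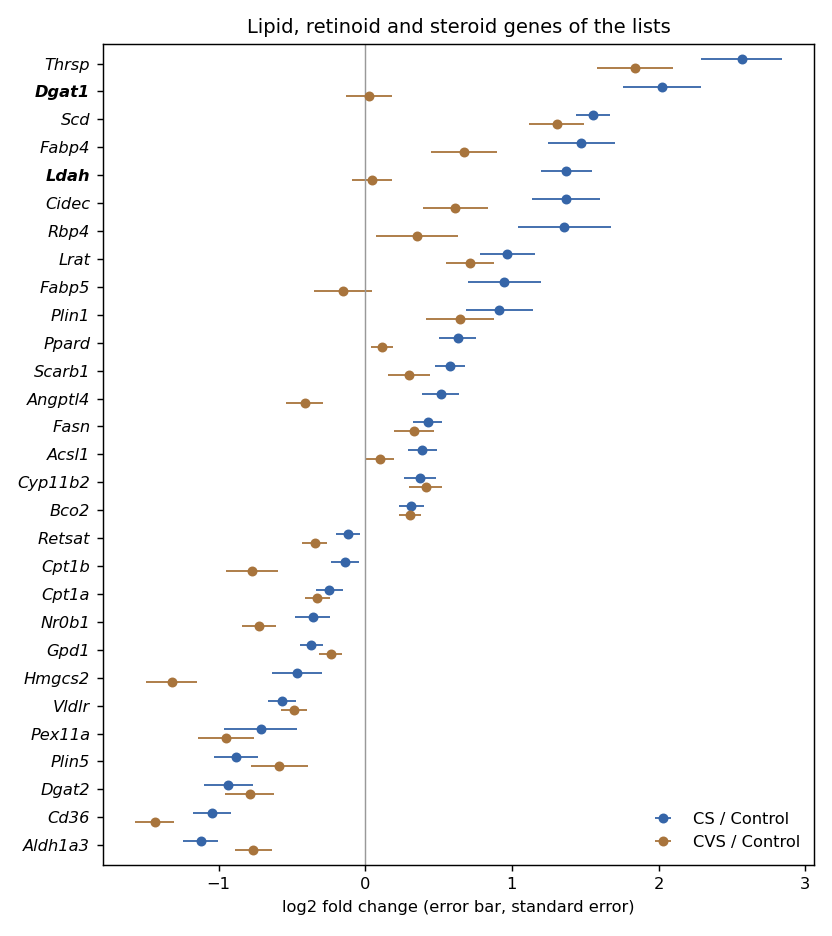
Log2 fold change with standard error of the 29 lipid, retinoid and steroid genes with an ID, in CS (blue) and CVS (brown) over the same 3 control libraries, ordered by the CS value. *Dgat1* and *Ldah* (bold) lie at 2.02 and 1.37 in CS and at 0.03 and 0.05 in CVS, whereas *Scd* and *Thrsp* lie above 0 in both.

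Because *Dgat1* also esterifies retinol, the retinoid genes were set beside it. *Lrat*, the main enzyme of retinol esterification, had 131, 191 and 143 CPM in control, 229 and 280 in CVS, and 251 and 356 in CS libraries. Its log2 fold change was 0.97 in CS (SE 0.19, edgeR adjusted p = 0.149), and 0.72 in CVS (SE 0.16, edgeR adjusted p = 0.297). *Aldh1a3*, which makes retinoic acid, fell by 1.12 in CS (SE 0.12, edgeR adjusted p = 0.0311) and stood at -0.76 in CVS (SE 0.13, edgeR adjusted p = 0.115). *Bco2*, which cleaves carotenoids, stood at 0.31 in CS and 0.30 in CVS, and *Retsat*, which saturates retinol, at -0.12 and -0.34. *Rbp4*, the retinol carrier, was low, at 1.89 to 8.98 CPM, and stood at 1.36 in CS (SE 0.32) and 0.35 in CVS (SE 0.28). None of these 3 was called by edgeR. With the replicate block *Lrat* and *Aldh1a3* were called in both protocols, *Rbp4* in CS, and *Bco2* and *Retsat* in CVS. *Lrat* and *Aldh1a3* thus lay on the same side of control in both protocols, while *Dgat1* stayed near control in CVS.

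Dissected adrenal glands can carry fat, whose cells express *Dgat1*, and adipocyte markers were therefore followed in the same libraries. Of 12 markers fixed, 9 had an ID, all of them listed as changed by the study, and 0 of the 9 were at 0 counts in any library. Their summed level was 135 to 184 CPM in control, 158 to 168 in CVS and 224 to 239 in CS libraries, with a CS mean 1.51-fold above that of control. *Cd36* made up a large part of the control sum and was lower in all 4 stressed libraries. Without it, a choice made after seeing the data, the sum of the other 8 was 63.9 to 100.5 CPM in control, 132 to 140 in CVS and 189 to 203 in CS libraries. The CS mean was then 2.42-fold and the CVS mean 1.68-fold above that of control. In CS 8 of the 9 markers were above all controls, and in CVS 7 of the 9, with *Cd36* below all controls in both and *Cfd* overlapping in CVS. Over all genes tested, 12.9% were above all controls in CS and 11.3% in CVS. Because the 9 were named as changed in these libraries, these counts are not independent evidence of a change. *Adipoq*, the adipocyte hormone adiponectin, stood at 8.16 to 11.4 CPM in control, 16.7 and 13.3 in CVS, and 23.3 and 23.9 in CS libraries. It rose in CS by 1.31 on the log2 scale (SE 0.15, edgeR adjusted p = 0.0311). *Retn* and *Car3* rose in CS as well, by 1.56 and 1.34 (edgeR adjusted p = 0.0412 and 0.0328), and *Cd36*, also on this list, fell as given above. The remaining markers of the list, *Lep*, *Pck1* and *Lipe*, had no ID. Between CS libraries 1 and 2 the summed markers differed by 1.07-fold, *Ldah* by 1.40-fold and *Dgat1* by 2.00-fold. Single markers differed in this, with *Car3*, the largest part of the sum in CS, at 92.9 and 92.7 CPM and *Fabp4* at 29.7 and 37.0. In both CVS libraries *Adipoq* and the sum without *Cd36* were above all controls, while *Dgat1* and *Ldah* were within the control range. *Cox8b*, the 1 marker of 7 for brown adipocytes with an ID, stood at 27.3 to 39.4 CPM in control, 15.4 and 20.0 in CVS, and 22.3 and 39.6 in CS libraries. The part of adipocyte RNA in the CS levels of *Dgat1* and *Ldah* was not tested. In pooled tissue, a larger share of a cell type and more RNA per cell cannot be told apart.

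**Figure D5:**
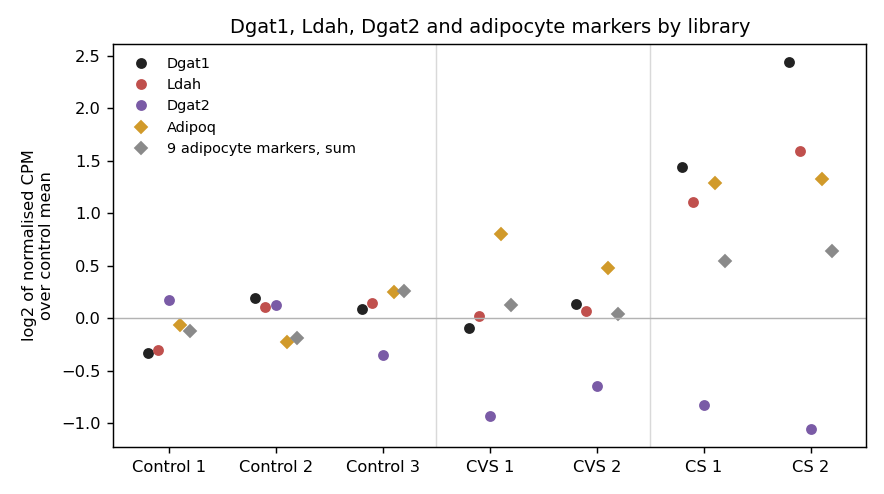
Log2 of normalised CPM over the control mean in each library for *Dgat1*, *Ldah*, *Dgat2*, *Adipoq* and the sum of the 9 adipocyte markers, *Cd36* included. *Dgat1* and *Ldah* stand apart in the CS libraries only, *Dgat2* lies below the control mean in all 4 stressed libraries, and *Adipoq* lies above it in all 4.

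*Chgb*, a granule protein of chromaffin cells and the 1 marker of 7 for them with an ID, stood at 1092 to 1232 CPM in control, 1193 and 1048 in CVS, and 1564 and 1498 in CS libraries. Both CS libraries were above the other 5, which held for 7.75% of all genes, with a log2 fold change over control of 0.40 (SE 0.09, edgeR adjusted p = 0.214). *Chgb* has a name because the study listed it as changed in CS, so that this is not independent evidence. The macrophage marker *Mrc1*, 1 of 6 with an ID, was highest in CVS, at 53.9 to 60.7 CPM in control, 85.3 and 75.2 in CVS, and 65.8 and 64.9 in CS libraries. No marker of endothelium, skeletal muscle or erythroid cells had an ID. The part of medullary RNA in the CS levels was not tested.

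In RefSeq's gene order, *Hsf1* and *Scrt1* flank *Dgat1*, and *Gdf7* and a long noncoding RNA flank *Ldah*. *Bop1*, a ribosome assembly factor 3 genes away from *Dgat1*, was the only neighbour with an ID. It had 75.7, 74.5 and 80.9 CPM in control, 78.6 and 74.4 in CVS, and 95.8 and 103 in CS libraries. Both CS libraries were above the other 5 here too, as in 7.75% of all genes. The log2 fold change over control was 0.37 (SE 0.08, edgeR adjusted p = 0.223) and over CVS 0.37 (SE 0.10, edgeR adjusted p = 0.638). *Bop1* likewise has an ID because the study listed it as changed in CS. *Bop1* was named after its position had been read from that table.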

How the data were processed

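RNA from pooled rat adrenal glands was sequenced in 7 libraries as single reads. For the deposited table, the authors aligned reads with Rsubread (build Rnor_6.0) and assigned them to Ensembl genes by featureCounts. The deposited counts are raw, with no normalization and no filter. The strand setting of the counting and the annotation release are not given in the sources used here, so that reads of overlapping genes could be mixed.

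A gene was tested when every library held at least 10 counts (13892 of 32754). Counts were scaled with TMM in edgeR 4.0.16 (R 4.3.3), and CPM relate a count to the scaled total of its library. Each comparison used its own libraries and edgeR's quasi-likelihood F-test, with Benjamini-Hochberg adjustment over all genes tested and a threshold of 0.05. A standard error is the log2 fold change divided by the square root of its F statistic. Count ratios are given with 95% Wilson intervals, and intervals and counting errors cover counting error only. DESeq2 1.42.0 was used as an alternative, and figures were drawn with matplotlib 3.10.9.

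*Dgat1*, *Ldah* and the gene lists were chosen with earlier results of these data known, and no p is given for these 2 genes. Symbols came from the study's tables of changed genes, which paired 275 IDs with a symbol. RefSeq's gene table holds no Ensembl ID. Genes named are both members, list genes with an ID (those called and a set fixed by name, with *Gpd1*, *Bco2*, *Rbp4*, *Angptl4* and the single markers of other cell types added after their values were seen), the 5 named genes most alike and the 3 most opposite to each member by Pearson's r, and *Bop1*. Of 8 planned neighbours of each member, *Bop1* alone had an ID. Pairing by the replicate number in the titles was used as an alternative only. Same-numbered libraries deviated together from their group means (r of 0.212 to 0.465 across genes over 6 pairs). Differently numbered pairs were not compared, so that these values cannot decide whether the number marks a pairing. The lowest r was that of control library 2 and CS library 2, whose prefixes differ. The 2 deviations within a group of 2 also mirror each other. The number and the code prefix disagree for CS library 2, whose prefix is that of control library 3. The alternatives were other scalings, DESeq2's Wald test, no filter, a block for the replicate number or the code prefix, all 7 libraries in 1 fit, edgeR's legacy calculation off, a threshold of 0.1 for CS/CVS, another prior count, a rank correlation and each library left out. Quantitative PCR was not analysed here, and 1 gene is not reported here.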

Additional observations from a re-analysis of the deposited data

Results flagged for a closer look

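*Angptl4*, a secreted inhibitor of lipoprotein lipase from the list of fatty acid uptake and oxidation, was 1 of 47 named genes examined. In it alone both CS libraries were above and both CVS libraries below every control library. This pattern was found in 1.01% of all 13892 genes tested, and the reverse pattern in 1.05%. Either direction was searched for, so that 1 of 47 is near the share of both patterns over all genes. *Angptl4* had 35.4, 33.3 and 41.6 CPM in control, 30.0 and 25.1 in CVS, and 47.6 and 57.4 in CS libraries. CS differed from CVS by 0.92 on the log2 scale (SE 0.14, edgeR adjusted p = 0.546), and the difference passed the threshold under DESeq2's Wald test and under the replicate block. For *Dgat1* and *Ldah* the CVS libraries lay within the control range.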

How the results depend on the processing

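The log2 fold changes of *Dgat1* and *Ldah* moved by less than the spread between libraries with DESeq2's size factors, total counts only, DESeq2's Wald test, no filter, the replicate block and all 7 libraries in 1 fit. With the replicate block they were 2.01 and 1.44 in CS over control, 0.09 and 0.14 in CVS over control and 1.91 and 1.30 in CS over CVS. Without the DM6 libraries, an alternative chosen after seeing the data, they were 2.29 and 1.46, -0.01 and -0.06, and 2.30 and 1.52, with 1 library left in CS and in CVS. With 1 library left out at a time, *Dgat1* ranged from 1.44 to 2.44 in CS over control and from 1.41 to 2.41 in CS over CVS, and *Ldah* from 1.11 to 1.59 and from 1.06 to 1.54. The lowest value of each came without CS library 2. In CVS over control *Dgat1* ranged from -0.12 to 0.14 and *Ldah* from -0.09 to 0.12. The difference of the log2 ratio in CS from control ranged from 0.33 to 0.85. The likeness of both genes was 0.893 by rank.

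Of the 27 other named lipid genes, the number called in CS over control was 4 with edgeR, 18 with DESeq2's Wald test, 18 with no filter, 21 with the replicate block and 22 with the code prefix as a block in a fit of all 7 libraries. The same fits called 0.209%, 1.37%, 1.04%, 3.01% and 4.18% of all genes. In CVS over control it was 1, 15, 13, 23 and 18 (0.0936%, 0.893%, 0.673%, 5.88% and 1.85% of all genes), and in CS over CVS 0, 2, 9, 9 and 3 (0%, 0.266%, 1.34%, 2.86% and 0.799%). With 1 control library left out it was 0 to 1 in CS and 0 to 1 in CVS, with fewer libraries in the fit. The cause of the other differences was not tested. All 27 genes have a name because the study listed them as changed by DESeq2's Wald test in these libraries. The 18 and 15 calls by that test are therefore not independent of how the genes were named. The blocked fits of 2 groups had 1 residual degree of freedom. Where a library left out leaves 1 in its group, only the values of *Dgat1* and *Ldah* were computed.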
